A study of Homo sapiens with 6 samples.

Results

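The genes described here are the signal carriers and the negative feedback genes of the transforming growth factor-β (TGF-β) pathway. The set holds 10 genes, chosen by symbol out of 25737 entries in the count tables. The carriers are SMAD2, SMAD3 and SMAD4, and the 7 feedback genes are SMAD6, SMAD7, SKI, SKIL, TGIF1, PMEPA1 and BAMBI. The study exposed respiratory epithelial cell lines to TGF-β1 as a model of pulmonary fibrosis. A549 cells, a human lung carcinoma epithelial line, and BEAS-2B cells, a human bronchial epithelial line, both labelled wild type, received TGF-β1 at 1 or 5 ng/mL for 48 h or were left untreated. The treated cells were in medium with a low serum content, and the labels do not give the medium of the untreated cells for that time. Each of the 6 conditions is 1 library, prepared with a QuantSeq kit, which reads the 3′ end of mRNAs, from the total RNA of the cells.

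TGF-β1 binds a pair of kinase receptors at the cell surface, which phosphorylate SMAD2 and SMAD3. The phosphorylated proteins join SMAD4, enter the nucleus and bind DNA at target genes. Some of these target genes encode proteins that damp the pathway, which is the negative feedback. SMAD6 and SMAD7 act at the receptors, SKI, SKIL and TGIF1 act as corepressors on SMAD complexes in the nucleus, and PMEPA1 and BAMBI act at membranes. The activity of SMAD2, SMAD3 and SMAD4 lies in their phosphorylation and location, which mRNA counts do not measure.

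Each condition had a single library, so the conditions could not be tested against each other and no p-value is given. A ratio is that of normalized counts, which are counts scaled by TMM factors (trimmed mean of M-values) to 1 common library size. The interval behind each ratio is its exact 95% Clopper-Pearson interval and covers counting error alone, not differences between cultures. These reads carry no molecular identifiers, so several may come from 1 molecule, and the interval may then be too narrow. A gene is written as higher or lower where this interval leaves out 1. It is written as called where the fold, taken after adding 1 to each normalized count, was at least 2 and where at least 1 of the 2 libraries reached a log2 value of 7, which is a normalized count of 127. Library totals ran from 4120624 to 7841350 counts, with the A549 library at 1 ng/mL the deepest. In bulk RNA, fewer cells that express a gene and less of its RNA per cell cannot be told apart.

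PMEPA1, SKIL, SMAD7 and SKI were the genes of the set that stood higher in every treated library, in both cell lines. The palindrome GTCTAGAC and the shorter CAGAC are published DNA motifs bound by SMAD3 and SMAD4. Both strands of the RefSeq promoter windows (GRCh38.p14, 250 bases before to 50 bases after a start) were searched for GTCTAGAC, CAGACA and CAGAC. GTCTAGAC reads the same on both strands, and every CAGACA also counts as a CAGAC. Of the 10 genes, 9 matched the table with 25 windows, and SKI did not. The sites below are shown because they belong to the 3 of those 4 genes that have windows, and because SMAD6 carries the rare palindrome. Capitals mark the motif or its reverse complement, and each sequence runs 5′ to 3′ on the strand of its gene.
PMEPA1: ccccttgggcagCAGACAatgggtgtggat
SKIL: agacggcggcggcGTCTGcgggaagctgtg
SMAD7: cttcttattttgcCAGACgtctcatgcggg
SMAD6: ccgcggagccgccaaagtGTCTAGACtggc

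The PMEPA1 stretch is chr20:57710675-57710704 on the minus strand, with the motif 115 to 110 bases before a start. The SKIL stretch is chr3:170357595-170357624 on the plus strand, with its motif 107 to 103 bases before the start. The SMAD7 stretch is chr18:48951077-48951106 on the minus strand, 128 to 124 bases before, and the SMAD6 stretch is chr15:66702206-66702235 on the plus strand, 12 to 5 bases before. GTCTAGAC was found in 1 of the 25 windows of the set and in 0.202% of all 35116 windows of the table. CAGACA was found in 5 of the 25 windows against 16.9% of all windows, and CAGAC in 15 against 45.3%. The matches were not particular to the genes that stood higher. TGIF1, lower in A549, had CAGACA in 3 and CAGAC in 5 of its 7 windows, SMAD3 had them in 1 and 3 of 5, and BAMBI had CAGAC in its only window. None of the 3 motifs was found in the 2 windows of SMAD2 or in the window of SMAD4. A match of letters is not a site of binding, and no match says only that these letters are not in the window.

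PMEPA1 encodes a membrane protein that binds SMAD2 and SMAD3 and keeps them from the receptor. The gene (ENSG00000124225) spans 57648392 to 57711536 of chromosome 20, minus strand, in GENCODE (GRCh38). In A549 it had 3579 normalized counts without TGF-β1, 16338 at 1 ng/mL and 17947 at 5 ng/mL. In BEAS-2B the values were 545 without TGF-β1, 11699 at 1 ng/mL and 11907 at 5 ng/mL. The 4 treated libraries thus lay above both untreated libraries. The ratio to the untreated library was 4.57 (4.40 to 4.74) at 1 ng/mL and 5.01 (4.83 to 5.21) at 5 ng/mL in A549. It was 21.4 (19.6 to 23.5) and 21.8 (19.9 to 24.0) in BEAS-2B. The step from 1 to 5 ng/mL was small in both lines, at 1.10 (1.08 to 1.12) in A549 and 1.02 (0.990 to 1.05) in BEAS-2B. NKILA, an antisense gene listed in the tables, overlaps the 5′ part of PMEPA1, 61791 bases from the 3′ end. It had 34, 400 and 591 counts in A549 over the doses and 7, 123 and 198 in BEAS-2B. Whether the counting used strand is not given in the sources used here, but these counts are small beside those of PMEPA1.

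BAMBI, a receptor-like membrane protein without a kinase domain that blocks receptor signalling, went the other way from PMEPA1 in A549. The gene (ENSG00000095739) spans 28677342 to 28682939 of chromosome 10, plus strand. Its normalized counts in A549 were 132 without TGF-β1, 96.9 at 1 ng/mL and 74.4 at 5 ng/mL. It was lower at both doses, with a ratio of 0.733 (0.569 to 0.947) at 1 ng/mL and 0.563 (0.419 to 0.755) at 5 ng/mL, and was called at neither. BEAS-2B cells had 6, 2 and 6 counts of BAMBI, close to the limit of 3 counts that a count of 0 allows, so a dose effect in these cells was not detectable at this depth.

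**Figure D1:**
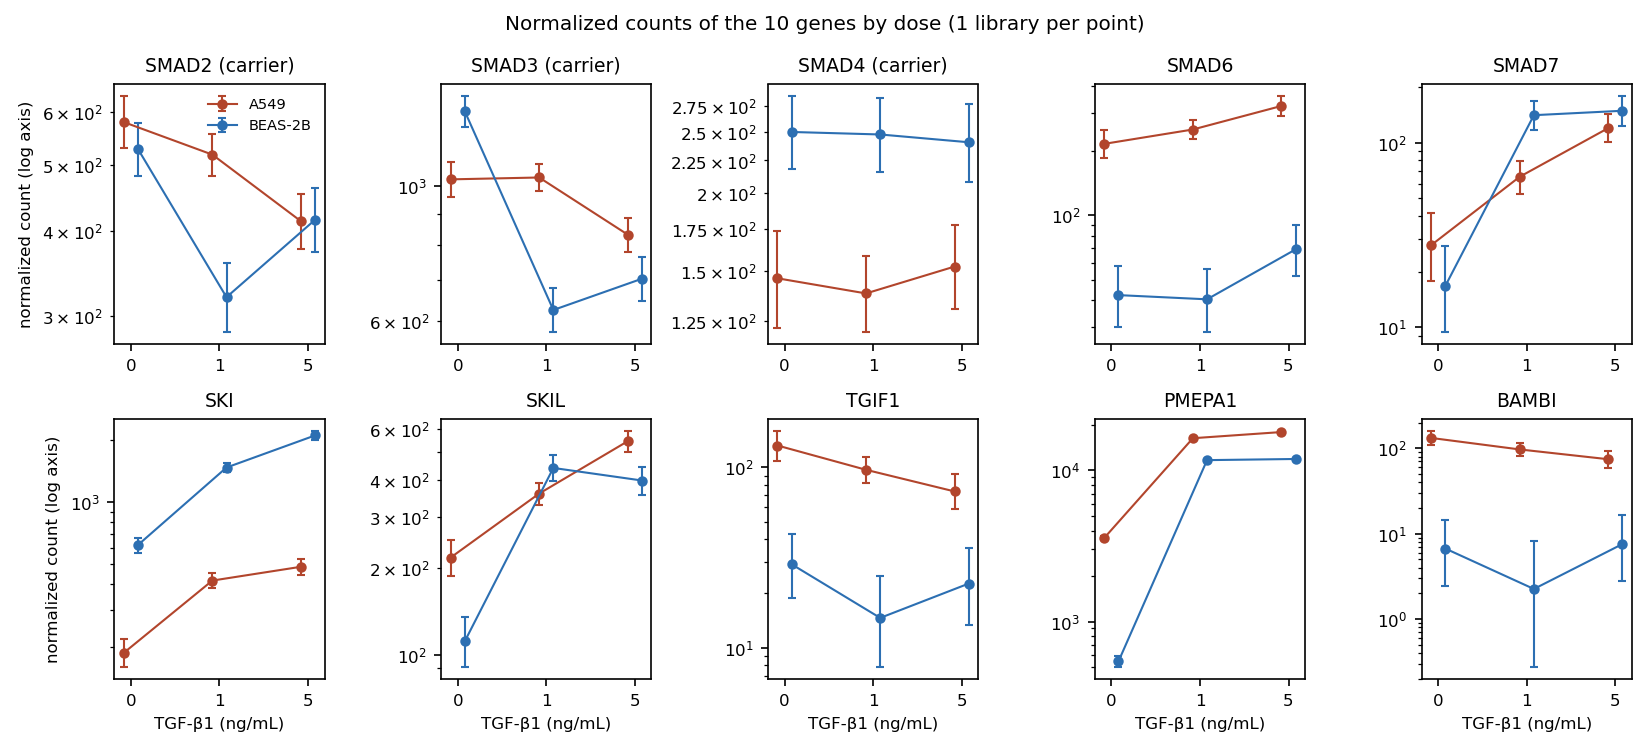
Normalized counts (log axis, with its own range in each panel) of the 10 genes against TGF-β1 dose in ng/mL, with doses spaced evenly. Each point is 1 library, bars are 95% counting intervals, and A549 is red and BEAS-2B blue. PMEPA1, SMAD7, SKI and SKIL lie higher in the treated libraries of both lines, and SMAD4 is level.

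SMAD7, the inhibitory SMAD that blocks the type I receptor and brings ubiquitin ligases to it, was low without TGF-β1 and higher in all 4 treated libraries. The gene (ENSG00000101665) spans 48919853 to 48952052 of chromosome 18, minus strand. It had 27.8, 65.3 and 120 normalized counts in A549 at 0, 1 and 5 ng/mL, which rest on 24, 95 and 132 counts. It had 16.7, 141 and 149 normalized counts in BEAS-2B, which rest on 15, 125 and 118 counts. Each step in A549 was thus beyond counting error, whereas the treated BEAS-2B libraries lay close together. The ratio was 2.35 (1.49 to 3.84) at 1 ng/mL and 4.31 (2.77 to 6.96) at 5 ng/mL in A549. In BEAS-2B it was 8.41 (4.91 to 15.5) at 1 ng/mL and 8.88 (5.17 to 16.4) at 5 ng/mL. The gene was called in BEAS-2B at both doses, but no A549 library reached the minimum. Both calls were lost when the libraries were thinned to the smallest total and with a log2 minimum of 8. From 1 to 5 ng/mL the ratio was 1.83 (1.40 to 2.41) in A549 and 1.06 (0.815 to 1.37) in BEAS-2B.

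SMAD6, the other inhibitory SMAD, acts mainly on the branch of the pathway driven by bone morphogenetic proteins. It (ENSG00000137834) spans 66702228 to 66782848 of chromosome 15, plus strand. The normalized counts in A549 were 216 without TGF-β1, 251 at 1 ng/mL and 324 at 5 ng/mL. In BEAS-2B they were 42.4, 40.5 and 69.3, all under the minimum. The gene was higher at 5 ng/mL only, with a ratio of 1.503 (1.26 to 1.80) in A549 and 1.63 (1.06 to 2.54) in BEAS-2B, and was called in no treated library. Its transcript GC content is 58.9%, and with the GC trend removed its log2 change in A549 at 5 ng/mL was 0.15 in place of 0.59. Of the 2 inhibitory SMADs, the one that blocks the TGF-β type I receptor had the larger ratio at each dose in each line.

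SKI and SKIL encode related nuclear corepressors that bind SMAD complexes and hold target genes silent. SKI (ENSG00000157933) spans 2228695 to 2310119 of chromosome 1, and SKIL (ENSG00000136603) 170357678 to 170396835 of chromosome 3, both on the plus strand. Normalized counts of SKI were 187, 418 and 487 in A549 at 0, 1 and 5 ng/mL. In BEAS-2B they were 621, 1474 and 2109. Each step between these 6 libraries, in order of level, was beyond counting error, and every BEAS-2B library lay above every A549 library. SKI was called higher at both doses in both lines. Its ratio was 2.24 (1.88 to 2.68) at 1 ng/mL and 2.61 (2.19 to 3.13) at 5 ng/mL in A549. In BEAS-2B the ratio was 2.37 (2.15 to 2.62) and 3.39 (3.08 to 3.74). SKI has a transcript GC content of 62.2%, and with the trend of change over GC content removed its log2 change in A549 was 0.62 at 1 ng/mL and 0.83 at 5 ng/mL, below the fold needed for a call.

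Normalized counts of SKIL were 217, 360 and 545 in A549 and 112, 441 and 399 in BEAS-2B. The treated libraries again lay above both untreated ones. The ratio in A549 was 1.66 (1.40 to 1.97) at 1 ng/mL, which was not called, and 2.52 (2.13 to 2.98) at 5 ng/mL, which was. In BEAS-2B it was 3.95 (3.17 to 4.98) at 1 ng/mL and 3.58 (2.85 to 4.53) at 5 ng/mL, both called. The step from 1 to 5 ng/mL was 1.51 (1.34 to 1.71) in A549, whereas its interval held 1 in BEAS-2B at 0.905 (0.778 to 1.05).

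TGIF1, a homeodomain corepressor that binds SMAD2, did not follow SKI and SKIL. The gene (ENSG00000177426) spans 3411608 to 3459978 of chromosome 18, plus strand. It was lower in treated A549, with 132 normalized counts without TGF-β1, 96.9 at 1 ng/mL and 73.5 at 5 ng/mL. The ratios were 0.733 (0.569 to 0.947) and 0.556 (0.413 to 0.746), neither called. In BEAS-2B it had 26, 13 and 18 counts, and the intervals of both ratios held 1. TGIF1 and BAMBI had the same counts in A549 at 0 and 1 ng/mL, 114 and 141, and differed by 1 count at 5 ng/mL. TGIF1P1, a processed pseudogene of TGIF1, is not an entry of the tables, so where its reads went is uncertain. TGIF1 and BAMBI are genes on different chromosomes with different counts in BEAS-2B.

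The carriers showed a different picture from PMEPA1, SMAD7, SKI and SKIL. SMAD3 (ENSG00000166949, chromosome 15 from 67063763 to 67195195, plus strand), which binds DNA directly, was the carrier with the widest range. It had 1025, 1033 and 832 normalized counts in A549 and 1326, 626 and 704 in BEAS-2B at 0, 1 and 5 ng/mL. The untreated BEAS-2B library was the highest of the 6 and the treated BEAS-2B libraries were the lowest. In BEAS-2B the ratio was 0.472 (0.426 to 0.522) at 1 ng/mL, called lower, and 0.531 (0.479 to 0.588) at 5 ng/mL, short of the fold limit. Scaled by total counts, the log2 change at 5 ng/mL was -1.04, past that limit. In A549 the interval held 1 at 1 ng/mL, at 1.01 (0.926 to 1.10), and the gene was lower at 5 ng/mL, at 0.811 (0.739 to 0.891).

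SMAD2 (ENSG00000175387, chromosome 18 from 47808957 to 47931146, minus strand), is the other receptor-phosphorylated carrier. It was lower at 5 ng/mL in A549 and at both doses in BEAS-2B. Its normalized counts were 579, 519 and 414 in A549 and 529, 320 and 416 in BEAS-2B. The lowest level was at 5 ng/mL in A549 but at 1 ng/mL in BEAS-2B. The ratio in A549 was 0.895 (0.799 to 1.005) at 1 ng/mL, with an interval that held 1, and 0.714 (0.628 to 0.812) at 5 ng/mL. It was 0.604 (0.520 to 0.702) and 0.786 (0.681 to 0.907) in BEAS-2B. Over the alternative settings given below, the log2 change of SMAD2 in A549 at 5 ng/mL ran from -0.69 to -0.21. At 1 ng/mL in A549 its log2 change was 0.056 with the GC trend removed, in place of -0.16. SMAD4 (ENSG00000141646, chromosome 18 from 51028394 to 51085045, plus strand), the partner shared by all branches of the pathway, had 146, 138 and 152 normalized counts in A549 and 250, 248 and 241 in BEAS-2B. The 4 ratios ran from 0.946 to 1.04 and all their intervals held 1.

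**Figure D2:**
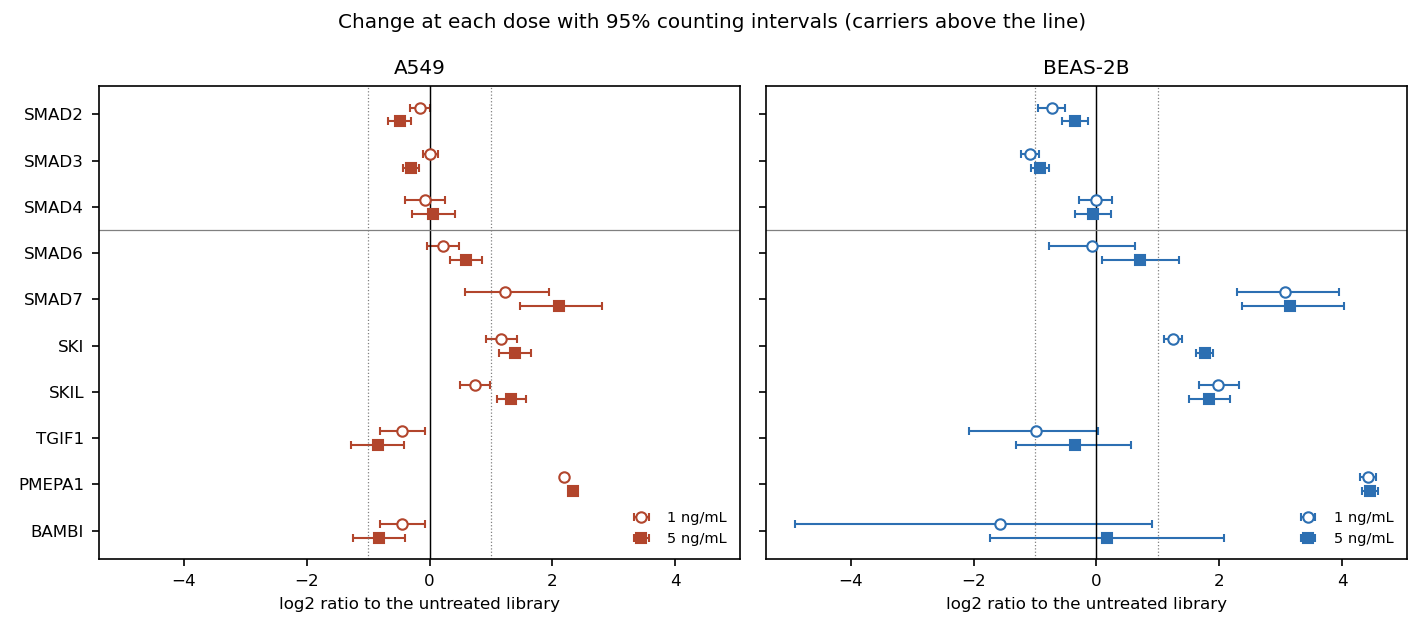
Log2 ratio of the normalized count to the untreated library of the same cell line, at 1 ng/mL (open circles) and 5 ng/mL (filled squares), with 95% counting intervals. Dotted lines mark a fold of 2. The carriers SMAD2, SMAD3 and SMAD4, above the grey line, have no interval wholly right of 0, and PMEPA1, SMAD7, SKI and SKIL lie right of 0 at both doses in both lines.

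Calls for the set can be read against all genes at the minimum in the same libraries. In A549 at 1 ng/mL, 2 of the 10 genes were called higher (PMEPA1 and SKI) and 0 lower, with 9 genes at the minimum. Among all genes at the minimum, 10.9% were called higher and 12.6% lower. At 5 ng/mL 3 were called higher (SKI, SKIL and PMEPA1), against 16.1% of all genes, and 0 lower, against 17.1%. In BEAS-2B at 1 ng/mL 4 of the 10 were called higher (SMAD7, SKI, SKIL and PMEPA1), with 7 genes at the minimum, and SMAD3 was called lower. There the background was 5.66% higher and 9.13% lower. At 5 ng/mL 4 were again called higher, the same genes as at 1 ng/mL, against 7.33%, and 0 lower, against 11.6%. A counting interval above 1 was common by itself. Of the 9 genes of the set at the minimum in A549 it was found for 3 at 1 ng/mL, against 42.5% of all genes at the minimum, and for 4 at 5 ng/mL, against 44.7%. An interval below 1 was found for 2 and 4 of the 9, against 35.0% and 37.0%. Of the 7 at the minimum in the BEAS-2B line 4 lay above 1 at each dose, against 34.7% and 38.3%, and 2 lay below at each dose, against 34.2% and 35.2%. Each pair of doses shares its untreated library, so the calls at the 2 doses are not independent of each other.

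The feedback genes as a list stood above the carriers in each comparison. The median log2 fold, with 1 added to each normalized count, was 0.73 for the 7 feedback genes and -0.08 for the 3 carriers in A549 at 1 ng/mL. At 5 ng/mL it was 1.33 and -0.30. In BEAS-2B the medians were 1.25 and -0.72 at 1 ng/mL and 1.76 and -0.35 at 5 ng/mL. All genes at the minimum had medians of 0.09, 0.11, 0.01 and 0.03 in the same order. The list medians also take genes under the minimum, since 6 of the 7 feedback genes reached it in A549 and 4 in BEAS-2B. The difference between the lists was therefore 0.81 and 1.63 in A549 and 1.97 and 2.11 in BEAS-2B. The 7 feedback genes did not move as 1 block, since TGIF1 and BAMBI were lower in A549.

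The step, the ratio of 5 to 1 ng/mL, differed between the cell lines beyond counting error for 6 of the 10 genes. The share of all genes that did so was not taken, so this count cannot be read as particular to the set. The ratio was larger in A549 for SMAD7, SKIL and PMEPA1 and in BEAS-2B for SKI, SMAD2 and SMAD3. For SMAD2 and SMAD3 the A549 step was a fall, at 0.798 (0.708 to 0.897) and 0.806 (0.741 to 0.875). The BEAS-2B step was a rise for SMAD2, and for SMAD3 its interval held 1, at 1.13 (0.999 to 1.27). In A549 SMAD7, SKI, SKIL and PMEPA1 were all higher at 1 ng/mL and higher again at 5 ng/mL, a shape shown by 17.4% of all genes at the minimum in A549. SMAD7 did not reach the minimum in A549 and is not among the genes of that share. In BEAS-2B SMAD7, SKIL and PMEPA1 were higher at 1 ng/mL with no further step beyond counting error, a shape of 17.3% of genes. SKI had a further step at 5 ng/mL, as did 8.59% of genes. The A549 step divided by the BEAS-2B step was 1.74 (1.21 to 2.50) for SMAD7, 1.67 (1.39 to 2.02) for SKIL, 1.08 (1.04 to 1.12) for PMEPA1 and 0.815 (0.711 to 0.935) for SKI. These intervals leave out the choice of scaling. Over the alternative settings given below, the log2 step of PMEPA1 ran from 0.10 to 0.18 in A549 and from 0.02 to 0.07 in BEAS-2B. No gene of the set was called between 1 and 5 ng/mL in either line, where 3.4% of all genes were called in A549 and 0.904% in BEAS-2B. Of the log2 change at 5 ng/mL, the part already present at 1 ng/mL was 94.2% for PMEPA1, 84.0% for SKI, 58.1% for SMAD7 and 55.0% for SKIL in A549. The median over all genes with a fold of at least 2 at 5 ng/mL was 73.7% in this line. In BEAS-2B the part was 99.4% for PMEPA1, 97.4% for SMAD7, 70.7% for SKI and 107.8% for SKIL, with a median of 83.4% over all such genes.

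Among the carriers, SMAD2 and SMAD3 were lower at 5 ng/mL only in A549, a shape that 12.1% of all genes shared in either direction. SMAD6 was higher at that dose only in both lines, where the share in BEAS-2B was 16.1%. That share leaves out SMAD6 itself, which was under the minimum in BEAS-2B. In BEAS-2B SMAD3 was lower at 1 ng/mL and level after that, like 19.1% of genes. SMAD2 was lower at 1 ng/mL and partly back at 5 ng/mL, with a step of 1.30 (1.11 to 1.53), like 6.73% of genes. The A549 step divided by the BEAS-2B step was 0.613 (0.504 to 0.746) for SMAD2 and 0.716 (0.620 to 0.826) for SMAD3. SMAD4 differed from the untreated library beyond counting error at neither dose in either line. This shape was shown by 11.2% of genes in A549 and 16.1% in BEAS-2B. TGIF1 and BAMBI were lower at 1 ng/mL and level after that in A549, like 13.9% of genes.

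A ratio of 2 genes within a library does not depend on the scaling of that library. SMAD3 served as the reference here, and its own change is thus part of these values. PMEPA1 counts per SMAD3 count were 4.53 times the untreated value at 1 ng/mL (4.14 to 4.97) and 6.18 times at 5 ng/mL (5.59 to 6.83) in A549. In BEAS-2B the same quantity was 45.5 times (39.7 to 52.1) and 41.1 times (35.9 to 47.1) the untreated value. SMAD7 per SMAD3 count was 5.31 times (3.40 to 8.28) in A549 and 16.7 times (9.69 to 28.9) in BEAS-2B at 5 ng/mL. SKI reached 3.22 times (2.64 to 3.93) and 6.39 times (5.56 to 7.35), and SKIL 3.10 times (2.57 to 3.74) and 6.74 times (5.27 to 8.63), in the same lines at that dose. The balance between these feedback genes and SMAD3 thus moved further in BEAS-2B, where SMAD3 itself was lower. SMAD4 per SMAD3 count was 2.10 times (1.70 to 2.60) the untreated value in BEAS-2B at 1 ng/mL while SMAD4 alone was level.

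**Figure D3:**
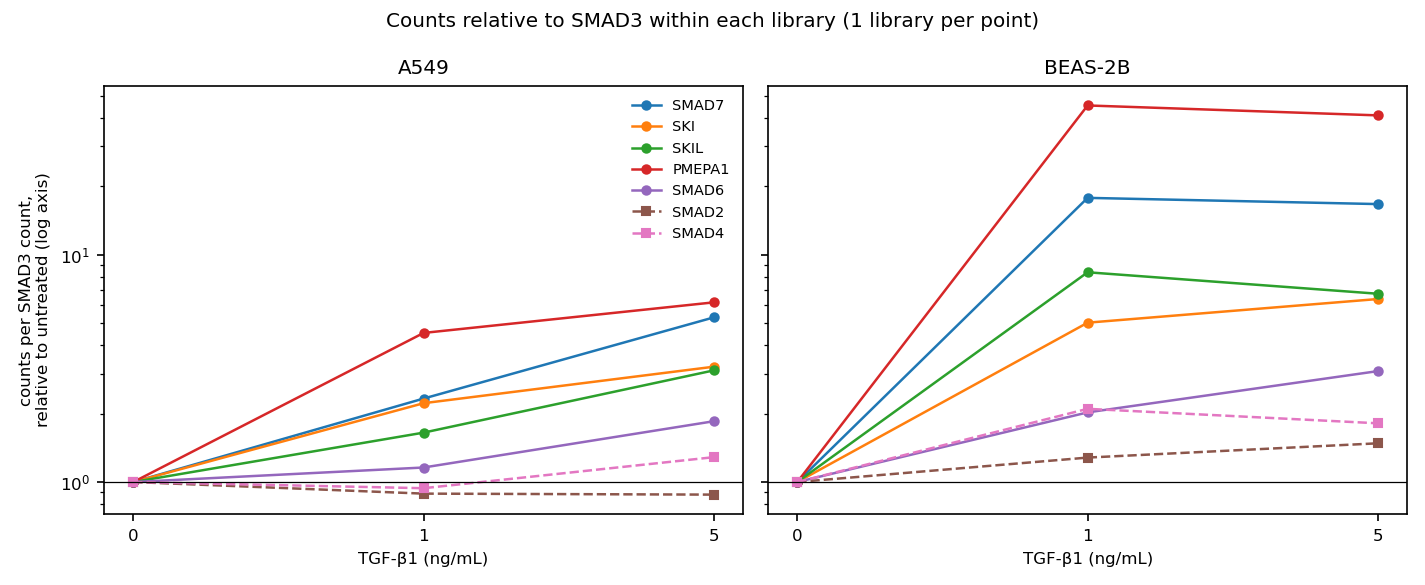
Counts per SMAD3 count within each library, relative to the untreated library of the same line (log axis), against TGF-β1 dose in ng/mL, with doses spaced evenly and 1 library per point. PMEPA1 reaches 6.18 in A549 and 45.5 in BEAS-2B. TGIF1 and BAMBI are not drawn.

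The change with TGF-β1 was compared between the lines by dividing the BEAS-2B ratio by the A549 ratio, with an interval from the 4 counts. For PMEPA1 it was 4.70 (4.26 to 5.18) at 1 ng/mL and 4.35 (3.95 to 4.80) at 5 ng/mL. For SMAD7 it was 3.58 (1.78 to 7.20) and 2.06 (1.03 to 4.12), and for SKIL 2.38 (1.81 to 3.14) and 1.42 (1.08 to 1.88). SKI differed at 5 ng/mL, with 1.30 (1.06 to 1.59), but not beyond counting error at 1 ng/mL, with 1.06 (0.867 to 1.29). SMAD3 went the other way at both doses and SMAD2 at 1 ng/mL. The SMAD2 ratio in A549 was 1.48 times (1.23 to 1.78) that in BEAS-2B at 1 ng/mL, and at 5 ng/mL 0.908 times (0.752 to 1.10), within counting error. The SMAD3 ratio in A549 was 2.13 times (1.87 to 2.43) that in BEAS-2B at 1 ng/mL and 1.53 times (1.33 to 1.75) at 5 ng/mL. These intervals hold for the libraries compared and do not cover differences between cultures.

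Without TGF-β1 the lines already differed in some of these genes, as they did in many genes outside the set. SMAD6, TGIF1, PMEPA1 and BAMBI were called higher in A549 than in BEAS-2B, where 18.1% of all genes were, and SKI was called lower, as were 18.9% of genes. The calls of TGIF1 and BAMBI, at 132 normalized counts just past the minimum, were lost after thinning, and with a log2 minimum of 8 that of SMAD6 was lost as well. PMEPA1 was 6.56 times (5.96 to 7.23) higher in untreated A549 but 1.40 times (1.36 to 1.43) at 1 ng/mL and 1.51 times (1.47 to 1.54) at 5 ng/mL. The gap between the lines was thus narrower for PMEPA1 in the treated libraries. For SMAD6 it was similar at both ends of the dose range, at 5.08 times (3.57 to 7.41) without TGF-β1 and 4.68 times (3.51 to 6.33) at 5 ng/mL. BAMBI was 19.7 times (8.79 to 54.9) higher in untreated A549, against 6 counts in BEAS-2B. SKI was higher in BEAS-2B throughout, at 3.33 times (2.79 to 3.99) without TGF-β1 and 4.33 times (3.92 to 4.78) at 5 ng/mL. SMAD4 was 1.71 times (1.37 to 2.15) higher in untreated BEAS-2B and 1.58 times (1.28 to 1.95) at 5 ng/mL. For SMAD2 and SMAD7 the untreated lines did not differ beyond counting error, with A549 to BEAS-2B ratios of 1.10 (0.964 to 1.25) and 1.66 (0.837 to 3.41).

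**Figure D4:**
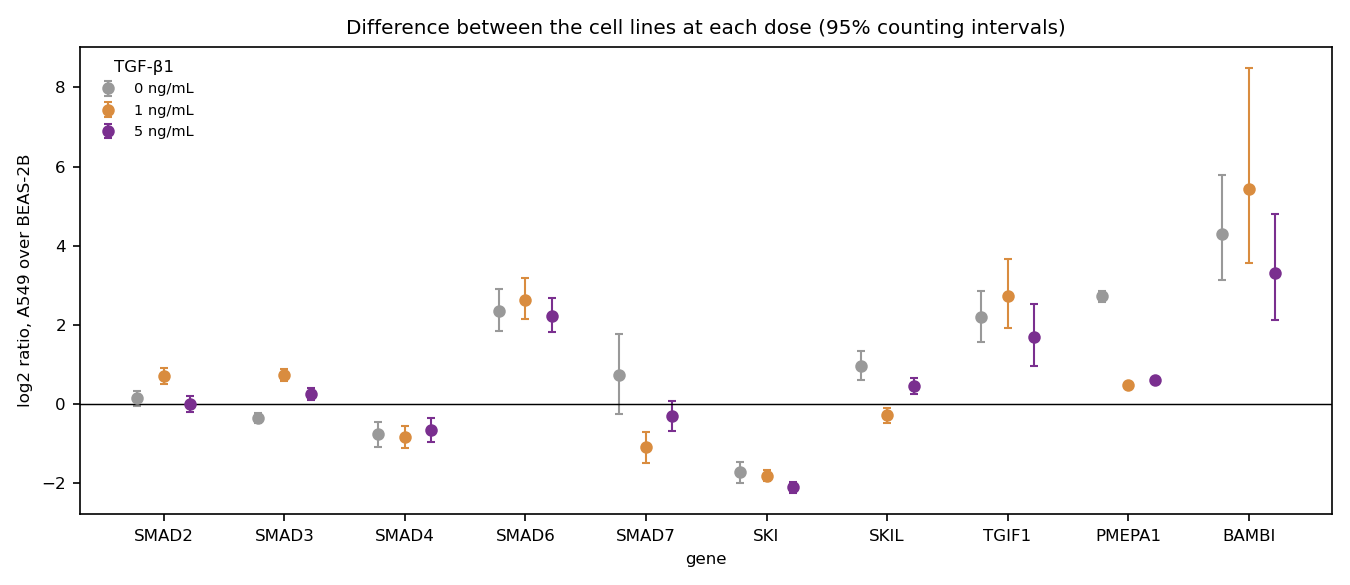
Log2 ratio of the normalized count in A549 to that in BEAS-2B at each TGF-β1 dose, with 95% counting intervals and 1 library per line and dose. PMEPA1 lies far above 0 without TGF-β1 and closer to 0 at both doses, and SMAD6 and TGIF1 stay above 0 and SKI and SMAD4 below 0 at every dose.

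For each gene the 3 genes with the most similar pattern were taken, by the Euclidean distance of log2 values centred within each line over the 6 libraries. They came from the 4198 genes at the minimum in every library. The nearest to PMEPA1 were FN1, AMIGO2 and COL7A1, at distances of 0.82, 0.91 and 1.22. FN1 encodes fibronectin and COL7A1 a collagen. The nearest to SMAD7 was COL27A1, another collagen, at 0.28, and then SOX4, a transcription factor, at 0.74. SMAD3 lay closest to the cytokine receptor kinase JAK1, at 0.07. SKI lay closest to the transcription factor TCF4 and then to TEAD2, and SKIL to TBC1D16. PMEPA1 had the greatest distance to its nearest gene of the 10, whereas SMAD4, with its level pattern, had the least, at 0.05 to ARID2.

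The summed level of the epithelial markers EPCAM, CDH1, KRT8, KRT18 and KRT19 was lower in the treated libraries. Of these 5 markers, 5 had counts in each A549 library, with a summed normalized count of 24834 without TGF-β1, 11182 at 1 ng/mL and 10461 at 5 ng/mL. In BEAS-2B 3 or 4 had counts, with sums of 2050, 1042 and 1262. EPCAM was at 0 in the 3 BEAS-2B libraries, and CDH1 had 2, 0 and 2 counts there, so these defining epithelial markers were at or near 0 in the line. The 5 leukocyte and endothelial markers summed to 8 to 78 counts per library, with CD3E and CDH5 at 0 in all. The alveolar type II markers summed to 2 to 13 counts and the airway basal markers to 0 to 8. The part of this shift in marker level in the changes of the feedback genes was not tested.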

How the data were processed

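Samples were assigned to the 6 conditions from their labels, 1 library each. The authors deposited whole-number read counts per gene symbol, not normalized, for 25737 entries (24462 symbols). The submitters' processing notes name Bowtie2, bedtools and hg19, and the study names ExDEGA for the analysis; the roles, the versions and the use of strand are not given in the sources used here. The 10 genes and the pathway and marker lists were chosen with earlier results of these data known.

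Counts were scaled with TMM factors (edgeR 4.0.16, R 4.3.3) over the 6 libraries, and later steps ran in Python 3.11.15 (scipy 1.17.1, numpy 2.4.6, pandas 2.3.3), with plots by matplotlib 3.10.9. The scaled value is the count times the mean effective size over the effective size of its library. Ratios carry exact 95% Clopper-Pearson intervals, and quotients of ratios carry normal intervals on the log scale from the 4 counts. The fold used for calls and for list medians has a pseudocount of 1. All rows of the tables entered the scaling and the counts of called genes, and the steps were tested on simulated data. The rule for named genes took the 10 genes, the extremes of 7 pathway lists with 43 genes, and the 3 nearest genes of each.

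Library totals were 4120624 to 7841350 counts, the 100 largest genes held 20.9% to 27.7% of them, and the minimum for a call stood at 101 to 185 counts. The 13 alternatives fixed at the start were other scalings (DESeq2 1.42.0 size factors, total counts, upper quartile, TMM within each line), a filter at 10 counts, pseudocounts of 0.1 and 5, thinning, minimums of 6, 8 and none, and folds of 1.5 and 3. Summing entries per symbol and removing the GC trend in 20 bins were added after seeing the data. Gene positions are those of GENCODE on GRCh38 and promoter windows those of RefSeq on GRCh38.p14. This build is not the one named for the counts, so they only locate the genes. The values of 1 gene of the pathway lists are not reported here.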

Additional observations from a re-analysis of the deposited data

Results flagged for a closer look

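For 4 changes the log2 values of the cell lines had opposite signs. In each of them the counting interval of at least 1 line held no change, so none is an opposite movement beyond counting error. With 1 library per condition, the difference between the lines was not tested in any of them. SMAD3 at 1 ng/mL had a log2 change of 0.010 in A549 and -1.08 in BEAS-2B, and the value in A549 turned negative under 5 alternatives. SMAD6 at 1 ng/mL had 0.22 in A549 and -0.06 in BEAS-2B, both with counting intervals that held no change. The A549 value turned to -0.12 with the GC trend removed and the BEAS-2B value turned positive with upper quartile factors. SMAD4 at 5 ng/mL had 0.062 in A549 and -0.05 in BEAS-2B, again within counting error. The A549 value turned negative with total counts and after thinning, and the BEAS-2B value turned positive with upper quartile factors and with the GC trend removed. BAMBI at 5 ng/mL had -0.82 in A549 and 0.15 in BEAS-2B, where it rests on 6 counts in each library.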

How the results depend on the processing

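No paired analysis was possible because each condition had 1 library, and for the same reason no library could be left out. No change of a called gene turned its sign under any of the 15 alternatives. Scaling by total counts moved the median log2 fold of all genes by -0.19 and -0.25 in A549 and by -0.14 and -0.15 in BEAS-2B, and the calls over all genes to 536 higher and 1131 lower in A549 at 1 ng/mL (766 and 883 with TMM), 798 and 1564 at 5 ng/mL (1146 and 1220), and 307 and 819 (378 and 610) and 373 and 1013 (494 and 783) in BEAS-2B. With total counts 1 gene of the set was called in A549 at 1 ng/mL (SKI was lost) and 5 at 5 ng/mL (TGIF1 and BAMBI were called lower). SMAD3 in BEAS-2B at 5 ng/mL also passed the fold limit with total counts, at a log2 change of -1.04. Between the untreated lines 3 genes were called after thinning, with 1176 higher and 1213 lower over all genes. With a minimum of 8, 2 were called, with 818 and 961 over all genes. With no minimum 1 gene (BAMBI) was called between 1 and 5 ng/mL in BEAS-2B, where 1837 of all 25737 entries were called higher and 1620 lower. A fold of 1.5 called 6 genes in A549 at 5 ng/mL, with TGIF1 and BAMBI lower. Of all 7115 genes at the minimum there, it called 2126 higher and 1865 lower. Between 1 and 5 ng/mL in A549 it called 1 (SKIL), and 543 higher and 545 lower of all 6467 genes. A fold of 3 called 1 in A549 at either dose and 3 in BEAS-2B at 1 ng/mL. Over all genes it called 254 higher and 420 lower in A549 at 1 ng/mL and 420 and 670 at 5 ng/mL. In BEAS-2B at 1 ng/mL it called 153 and 215. With the GC trend removed, 1 gene was called in A549 at 1 ng/mL, with 571 higher and 829 lower over all genes. The feedback genes then lay 1.04 above the carriers at 5 ng/mL. Over all alternatives that difference in A549 lay between 0.57 and 0.81 at 1 ng/mL and between 1.04 and 1.63 at 5 ng/mL, and in BEAS-2B between 1.84 and 1.97 and between 1.90 and 2.11. The SMAD7 calls in BEAS-2B were lost after thinning and with a minimum of 8. Where SMAD7, BAMBI or TGIF1 had under 30 counts, the depth limits what can be seen.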

Other observations

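The other genes of the pathway were followed in 7 lists with 43 genes, chosen with earlier results of these data known. At 5 ng/mL 11 were called higher and 4 lower in A549, with 31 at the minimum, and 8 higher and 1 lower in BEAS-2B, with 35 at the minimum. Among all genes at the minimum the shares were 16.1% and 17.1% in A549 and 7.33% and 11.6% in BEAS-2B. The ubiquitin ligases that remove SMADs and receptors differed among themselves. SMURF1 had a ratio of 1.80 (1.41 to 2.31) in A549 and 2.14 (1.57 to 2.93) in BEAS-2B, called in the latter, and SMURF2 had 2.01 (1.48 to 2.77) and 2.50 (2.08 to 3.03). NEDD4L, which acts on SMAD2 and SMAD3, was called lower in both, at 0.321 (0.269 to 0.382) and 0.313 (0.280 to 0.348). TRIM33, a ligase of SMAD4, was called lower in A549 at 0.373 (0.297 to 0.465).

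LDLRAD4, a relative of PMEPA1 that also binds SMAD2 and SMAD3, had 0, 70 and 58 counts in the A549 libraries, in order of dose. The BEAS-2B libraries had 10, 102 and 93 counts, a ratio of 10.5 (5.46 to 22.6) at 5 ng/mL, and lay under the minimum in every library. Of the 6 early SMAD target genes 5 were called higher at 5 ng/mL in each line. Unlike the members of the set, CTGF was also called between 1 and 5 ng/mL in A549, at 2.21 (1.98 to 2.47). In A549 at 5 ng/mL 1 of the 5 listed receptors had an interval above 1 and 3 had one below. Among all genes at the minimum, which 3 of the 5 reached, the shares were 44.7% and 37.0%. ACVR1B was called lower at 0.379 (0.293 to 0.488), and TGFBR3 had 34 counts without TGF-β1 and 3 at this dose. TGFBR1, the type I receptor, was called higher at 7.23 (6.12 to 8.60) and TGFBR2, the type II receptor, lower at 0.282 (0.228 to 0.348). In BEAS-2B at this dose TGFBR1 and TGFBR2 had ratios of 1.42 (1.19 to 1.71) and 0.572 (0.453 to 0.719), neither called. ACVR1B and TGFBR3 had 0.532 (0.410 to 0.687) and 0.151 (0.078 to 0.271) there, also not called. Of the 5 receptors 2 had an interval above 1 in this line and 3 had one below. Among all genes at the minimum, which 4 of the 5 reached, the shares were 38.3% and 35.2%.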
